A study of Mus musculus with 16 samples.

Results

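FOXO transcription factors and the ubiquitin ligases of muscle atrophy were followed in the tibialis anterior, a mostly fast-twitch hindlimb muscle, of mice given GDF15. The group is a list of gene symbols: the 3 FOXO factors Foxo1, Foxo3 and Foxo4, the ligase genes Fbxo32, Trim63, Fbxo30, Fbxo31 and Fbxo21, the transcription factor Klf15, and the cell cycle inhibitor gene Cdkn1a. All 10 had a row among the 14538 genes listed, and all 10 passed the minimum mean of 10 normalized counts that left 11841 genes for testing.

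The study sequenced this muscle from 5 Vehicle, 6 GDF15 and 5 PairFed mice, with 1 library per mouse. All groups were wild-type C57BL/6 mice by their labels, and males on the C57BL/6J background by the study's methods, moved at 8 weeks of age to about 29 °C and to a NASH diet, which produces fatty liver disease, and caged singly once randomized for treatment. GDF15, a stress-induced hormone that lowers food intake through a brainstem receptor, was given under the skin as recombinant protein each morning, the labels listing daily doses of 0.3, 1 and 5 nmol/kg, and the dose of these 6 mice is not given in the sources used here. PairFed mice received the amount of food that the GDF15 group had eaten on the previous day, so that GDF15 against PairFed compares treated mice with mice of matched intake, and each comparison with Vehicle also holds the lower intake.

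FOXO factors are held in the cytoplasm when insulin or IGF1 signals through Akt, and they enter the nucleus when that signal falls, as in fasting. In wasting muscle they raise the transcription of ubiquitin ligases, which mark proteins for breakdown by the proteasome, and of autophagy genes. Fbxo32 (atrogin-1) and Trim63 (MuRF1) are the ligase genes most used as markers of atrophy. Because FOXO activity is set largely by phosphorylation and location, the mRNA level of a FOXO gene is not a measure of its activity.

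Promoter sequences of Trim63 and Klf15 are shown because Trim63 holds the FOXO core motif and Klf15 was the only member to pass a test between groups in the fit over all 3 groups. Each run covers 250 bases before the annotated start and 10 bases after it, read 5′ to 3′ from RefSeq on GRCm38.p6, at chr4:134314870-134315129 (+ strand) for Trim63 and chr6:90462326-90462585 (+ strand) for Klf15. Capitals mark the FOXO core GTAAACA in Trim63, which lies on the opposite strand and is therefore printed as TGTTTAC, and the E-box CACGTG in Klf15.
Trim63: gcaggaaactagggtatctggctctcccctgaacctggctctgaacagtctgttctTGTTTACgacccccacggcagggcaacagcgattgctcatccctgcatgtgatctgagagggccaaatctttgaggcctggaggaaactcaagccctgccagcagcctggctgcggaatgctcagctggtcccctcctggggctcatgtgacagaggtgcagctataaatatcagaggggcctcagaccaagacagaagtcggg
Klf15: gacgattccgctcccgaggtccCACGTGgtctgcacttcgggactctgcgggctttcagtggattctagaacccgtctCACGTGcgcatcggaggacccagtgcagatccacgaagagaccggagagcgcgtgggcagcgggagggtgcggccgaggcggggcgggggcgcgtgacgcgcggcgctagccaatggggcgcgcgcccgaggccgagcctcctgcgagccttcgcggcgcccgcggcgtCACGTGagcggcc
The FOXO core began 194 bases before the Trim63 start, and a glucocorticoid receptor half-site AGAACA, also on the opposite strand, began 200 bases before it, so that the 2 matches are adjacent without overlap. Klf15 held 3 E-boxes, which began 228, 172 and 3 bases before its start. Promoter entries, each of 300 bases (250 before the start and 50 after), were found for 8 of the 10 members, the exceptions being Fbxo32 and Foxo4, and Trim63 was the only one of the 8 with GTAAACA and with AGAACA, as Klf15 was with CACGTG. Among 32851 promoters of the same length, searched on both strands, 3.65% held GTAAACA, 19.0% held AGAACA, 7.15% held CACGTG, and 0.0883% held CACGTG at 3 or more places. The motifs were chosen after these promoters had been read, and a match describes the letters of the window, not a bound site.

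The libraries held approximately 9470673 to 15029335 reads, with group medians of 13907880 for Vehicle, 12128692 for GDF15 and 14253827 for PairFed. Defining genes of fast muscle were abundant in every library, the 8 fibre markers summing to at least 2.03e+06 normalized counts, and Myh4, the fast myosin IIb gene, took 5.66% to 7.56% of a library. The library of Vehicle mouse 1 was the highest of all 16 in 4 of the 10 members (Foxo1, Foxo3, Fbxo32 and Trim63), whereas it was the highest in 7.03% of all tested genes, so results that rest on it are given with and without it. Tests were made with limma on log2(normalized count + 1) over all 3 groups with Benjamini-Hochberg adjustment over the 11841 genes, and the thresholds of the study for this muscle were an adjusted p under 0.1 together with a log2 fold change above 0.6 in size. Where no fold threshold is named, a gene is said to pass, rise or fall at an adjusted p under 0.1 alone. In bulk muscle, fewer cells of a type and less RNA per cell cannot be told apart.

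Levels between genes were compared as normalized counts per kb of annotated exon in the Vehicle group (mean ± SD, n = 5). Trim63 was the highest at 1123 ± 208 per kb, followed by Foxo4 at 913 ± 37.6 per kb and Fbxo32 at 913 ± 199 per kb, and the values of these 3 genes overlapped. Fbxo31 came next at 503 ± 33.1 per kb and Klf15 at 201 ± 14.5 per kb, and neither gene's mice overlapped with those of its neighbours in this order. The remaining 5 members lay between 44.9 and 53.3 per kb without being separated from each other, namely Fbxo21, Foxo3, Cdkn1a, Foxo1 and Fbxo30. By this measure Trim63 stood at percentile 96.6 of the 11651 tested genes with an annotated length and Fbxo30 at percentile 50.4. Foxo4 was thus the FOXO gene with the most transcript in this muscle, at 913 per kb against 52.6 for Foxo3 and 46.6 for Foxo1.

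**Figure D1:**
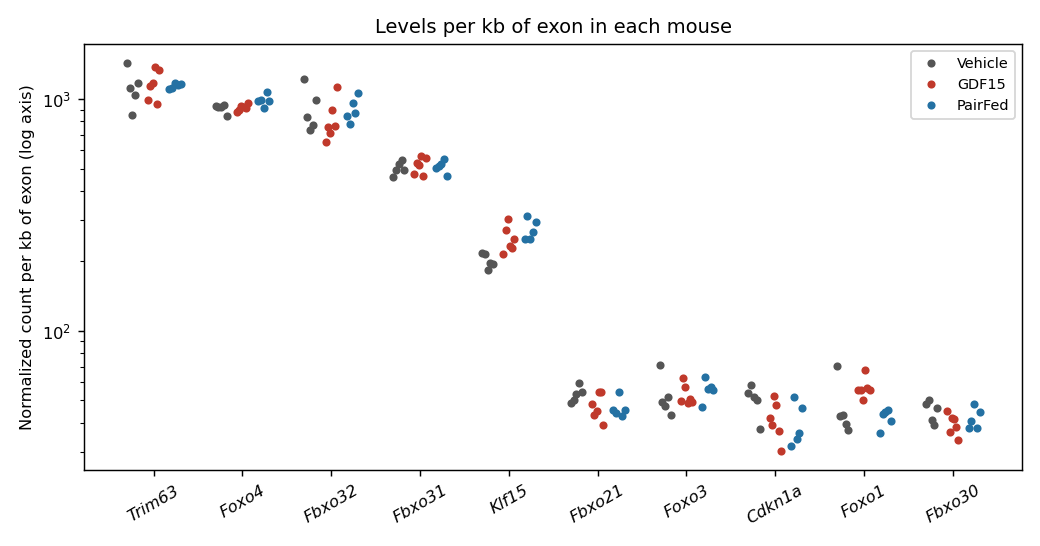
Normalized counts per kb of exon (log axis) of the 10 genes, ordered by their Vehicle mean, with 1 point per mouse in the Vehicle (n = 5), GDF15 (n = 6) and PairFed (n = 5) groups. Trim63, Foxo4 and Fbxo32 lie highest, between 655 and 1426 per kb, Fbxo31 and Klf15 lie below them, and the other 5 genes share the lowest band.

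No member passed both thresholds in any of the 3 comparisons. Across all tested genes, 0.304% passed both in GDF15 against Vehicle, 0.819% in PairFed against Vehicle and 0.279% in GDF15 against PairFed, and a count of 0 among 10 genes is near these shares. At an adjusted p under 0.1 alone, 0 of 10 members passed in GDF15 against Vehicle (0.769% of all genes), 1 of 10 in PairFed against Vehicle (6.37% of all genes) and 0 of 10 in GDF15 against PairFed (2.17% of all genes). Klf15 was the gene that passed. At an unadjusted limma p under 0.05, the members numbered 2, 4 and 2 of 10 in the same order, beside 11.0%, 18.9% and 13.2% of all genes. Median log2 fold changes of the 10 members were 0.02, 0.02 and -0.03, and those of all genes were 0.00 in each comparison. These comparisons share mice, since each of the 3 groups enters 2 of them.

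**Figure D2:**
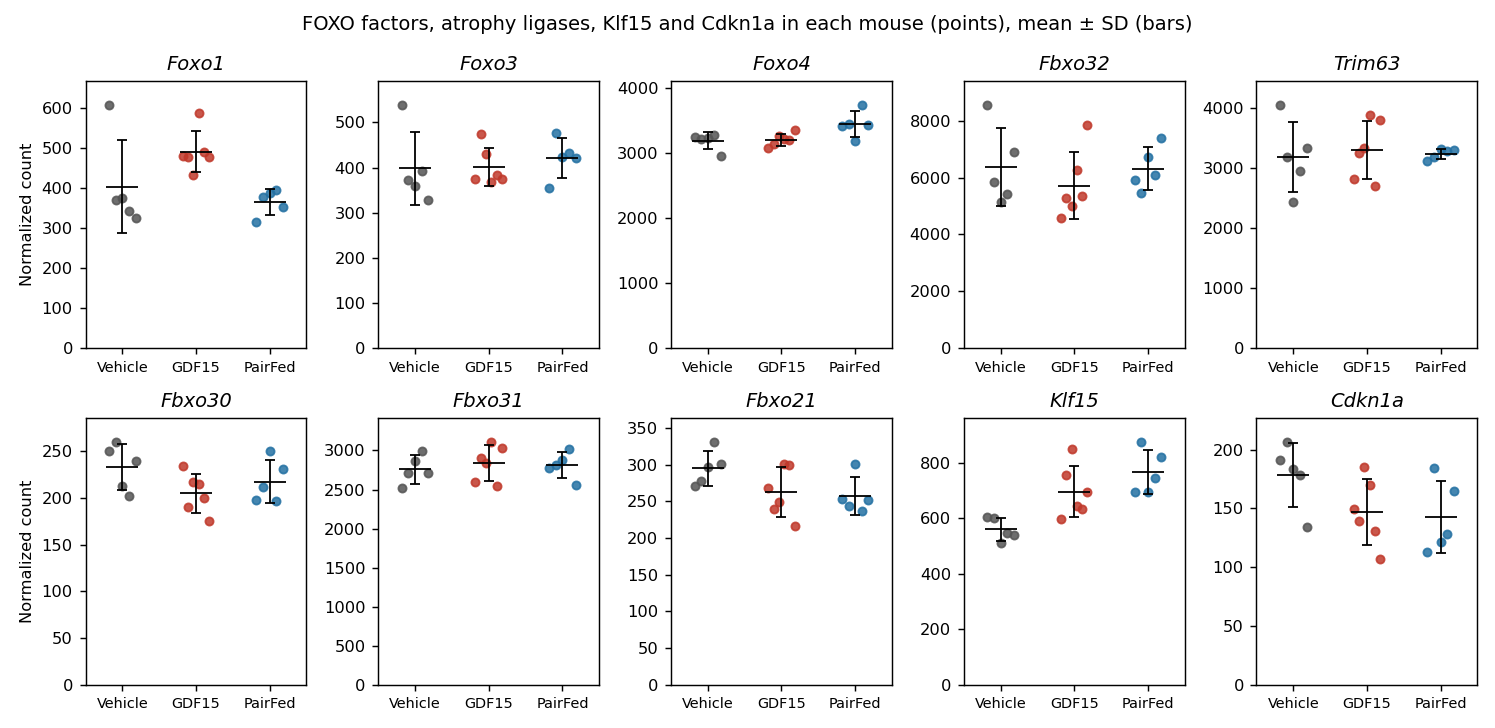
Normalized counts of the 10 genes in each mouse (points), with the group mean and SD (bars), in the Vehicle (n = 5), GDF15 (n = 6) and PairFed (n = 5) groups, each axis starting at 0. Klf15 lies higher in every PairFed mouse than in every Vehicle mouse, and Foxo1 lies higher in every GDF15 mouse than in every PairFed mouse.

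Klf15 (chr6:90462576-90475238, + strand) encodes a Krüppel-like factor that responds to glucocorticoids and promotes the breakdown of branched-chain amino acids in muscle. Its normalized counts were 603, 600, 510, 546 and 540 in the Vehicle mice and 694, 875, 694, 746 and 822 in the PairFed mice. In the 6 GDF15 mice they ran from 598 to 849 with a median of 669. All PairFed mice thus lay above all Vehicle mice, while the lowest GDF15 mouse lay inside the Vehicle range. Klf15 rose in PairFed against Vehicle by a log2 fold change of 0.45 ± 0.09 (SE, 95% confidence interval 0.26 to 0.64, limma adjusted p = 0.0119), that is 1.36-fold, from 560 ± 40.4 (SD, n = 5) to 766 ± 80.2 (SD, n = 5) normalized counts. Its size was under the study's fold threshold. It was the only one of 10 members without overlap between the groups in this comparison, beside 5.44% of all genes.

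In GDF15 against Vehicle, the log2 fold change of Klf15 was 0.31 ± 0.09 (SE, limma adjusted p = 0.153), with 696 ± 93.0 normalized counts in the GDF15 mice (SD, n = 6), and all 6 of them exceeded the Vehicle median. GDF15 against PairFed gave -0.14 ± 0.09 (SE, adjusted p = 0.503), with an interval from -0.32 to 0.04. A difference between treated and pair-fed mice in Klf15 was therefore not resolved in either direction. The difference between PairFed and Vehicle mice kept an adjusted p between 0.00951 and 0.042 in 11 alternative analyses and between 0.0055 and 0.0401 when each of the 16 libraries was left out.

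Among 18 tested partners of Klf15 and the glucocorticoid receptor, 4 rose and 0 fell in GDF15 against Vehicle, 5 rose and 0 fell in PairFed against Vehicle, and 1 was higher and 1 lower in GDF15 against PairFed (limma adjusted p under 0.1), beside 0.769%, 6.37% and 2.17% of all genes in either direction. Per1, a clock gene that glucocorticoids also induce, rose by 1.46 in PairFed against Vehicle (log2 fold change, adjusted p = 2.01e-05) and by 1.03 in GDF15 against Vehicle (adjusted p = 0.00145), from 445 ± 60.4 (SD, n = 5) to 1229 ± 184 (SD, n = 5) and 918 ± 192 (SD, n = 6) normalized counts. Prodh, the first enzyme of proline breakdown, rose by 0.71 in PairFed against Vehicle (log2 fold change, adjusted p = 0.0666), with groups that overlapped. Prodh passed in 10 of 11 alternatives and in 10 of 16 fits with 1 library left out. Fkbp5, a chaperone gene used as a marker of glucocorticoid receptor activity, differed between the groups of matched intake. It stood at 430 ± 103 (SD, n = 5) in Vehicle, 745 ± 164 (SD, n = 6) in GDF15 and 389 ± 94.2 (SD, n = 5) in PairFed mice, higher in GDF15 than in PairFed by a log2 fold change of 0.94 (adjusted p = 0.0155) and than in Vehicle by 0.80 (adjusted p = 0.0561). The difference of Fkbp5 from PairFed passed in every alternative and left-out fit. That from Vehicle passed in 9 of 11 alternatives and in 11 of 16 fits with 1 library left out.

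The other partners that passed were named after their values were seen. Tsc22d3 (GILZ), also induced by glucocorticoids, rose in both comparisons with Vehicle, by log2 fold changes of 0.35 with GDF15 (adjusted p = 0.0292) and 0.33 with pair feeding (adjusted p = 0.0157). Klf9, another glucocorticoid-responsive Krüppel-like factor, rose in both as well, by 0.15 (adjusted p = 0.0744) and 0.30 (adjusted p = 0.000132), and was lower in GDF15 than in PairFed mice by 0.16 (log2 fold change -0.16, adjusted p = 0.0354). Cebpb, a C/EBP transcription factor gene, rose by 0.45 in PairFed against Vehicle (adjusted p = 0.0249). The count of 4 in GDF15 against Vehicle fell to 1 with depth as a covariate and to 2 without a trend or without Vehicle mouse 2, Vehicle mouse 5 or GDF15 mouse 2, and Klf9 in that comparison passed in 5 of 11 alternatives.

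Foxo1 (chr3:52268336-52353221, + strand) encodes a FOXO factor whose transcription rises in fasted muscle. Its normalized counts were 314, 377, 387, 395 and 353 in the PairFed mice and 607, 369.5, 376, 342 and 324 in the Vehicle mice. In the GDF15 mice they ran from 433 to 587 with a median of 479. Every GDF15 mouse lay above every PairFed mouse, and 4 of 5 Vehicle mice lay within the PairFed range while Vehicle mouse 1 lay above all others. The group means were 404 ± 116 (SD, n = 5) for Vehicle, 491 ± 51.1 (SD, n = 6) for GDF15 and 365 ± 32.7 (SD, n = 5) for PairFed. The log2 fold change in GDF15 against PairFed was 0.42 ± 0.12 (SE, 95% confidence interval 0.16 to 0.69), or 1.34-fold, and it missed the threshold (limma adjusted p = 0.122). Foxo1 was the only one of 10 members without overlap in this comparison, beside 1.77% of all genes, and in GDF15 against Vehicle 0 of 10 members were without overlap, beside 1.65%.

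In the main fit over all 3 groups, this result for Foxo1 depended on 1 library that is not part of the comparison. Without Vehicle mouse 1, which widens the spread shared by all groups, the difference in GDF15 against PairFed had the same log2 fold change of 0.42 and an adjusted p of 0.0167, and that in GDF15 against Vehicle went from 0.32 (adjusted p = 0.342) to 0.47 (adjusted p = 0.0178). A fit of only the GDF15 and PairFed libraries gave an adjusted p of 0.0396 and scaling to the same total 0.0819, whereas depth as a covariate gave a log2 fold change of 0.28 and an adjusted p of 0.400. PairFed against Vehicle gave -0.11 (adjusted p = 0.712) with Vehicle mouse 1 and 0.05 (adjusted p = 0.826) without it. In 2 of these 3 comparisons, then, whether Foxo1 passed an adjusted p of 0.1 in the main fit turned on the inclusion of Vehicle mouse 1. With that mouse included, GDF15 against PairFed also passed under scaling to the same total. The fold of Foxo1 stayed under the study's threshold with and without Vehicle mouse 1.

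Foxo3 (chr10:42181841-42276755, - strand), which encodes a FOXO factor that can drive both atrogin-1 and autophagy genes, varied little between groups. It averaged 398 ± 81.7 (SD, n = 5) normalized counts in Vehicle, 401 ± 42.8 (SD, n = 6) in GDF15 and 421 ± 43.8 (SD, n = 5) in PairFed mice, and the ranges of all groups overlapped. The log2 fold changes lay between -0.07 and 0.10, and the interval in GDF15 against PairFed ran from -0.30 to 0.15. Without Vehicle mouse 1, Foxo3 gave 0.14 in GDF15 against Vehicle (adjusted p = 0.643) and 0.21 in PairFed against Vehicle (adjusted p = 0.237).

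Foxo4 (chrX:101254528-101260873, + strand), on the X chromosome, was the most precisely measured member, with an SE of 0.04 on the log2 scale in each comparison. The PairFed mice had 3416, 3448, 3181, 3728 and 3423 normalized counts, the Vehicle mice 3240, 3210, 3230, 3276 and 2951, and the GDF15 mice 3074 to 3346 with a median of 3198. Except for PairFed mouse 4, the PairFed mice exceeded all Vehicle and GDF15 mice. The log2 fold change was 0.11 in PairFed against Vehicle (adjusted p = 0.161), 0.01 in GDF15 against Vehicle (adjusted p = 0.965) and -0.10 in GDF15 against PairFed (adjusted p = 0.28). Without PairFed mouse 4, PairFed against Vehicle gave 0.14 with an adjusted p of 0.0751.

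Fbxo32 (chr15:58175879-58214932, - strand) encodes atrogin-1, an F-box protein that brings substrates to an SCF ligase. Its normalized counts were 8539, 5845, 5142, 5412 and 6895 in the Vehicle mice and 5919, 5447, 6723, 6092 and 7381 in the PairFed mice. In the GDF15 mice they ran from 4568 to 7841 with a median of 5316. The 3 groups overlapped over most of their range. Log2 fold changes were -0.15 in GDF15 against Vehicle (interval -0.44 to 0.13, adjusted p = 0.745), 0.01 in PairFed against Vehicle (-0.29 to 0.30, adjusted p = 0.988) and -0.16 in GDF15 against PairFed (-0.44 to 0.12, adjusted p = 0.652). Without Vehicle mouse 1, GDF15 against Vehicle gave -0.04 and PairFed against Vehicle 0.12.

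Trim63 (chr4:134315120-134329629, + strand) encodes MuRF1, a RING-finger ligase that acts on thick-filament proteins. The Vehicle mice had 4052, 3181, 2436, 2950 and 3338 normalized counts, and the PairFed mice had 3125, 3184, 3329, 3283 and 3301. In the GDF15 mice the counts ran from 2703 to 3896 with a median of 3291. The PairFed values lay close together, with an SD of 86.4 beside 590 in Vehicle and 489 in GDF15 mice, and lay inside the range of both other groups. The difference in spread was not tested. Log2 fold changes were 0.06, 0.04 and 0.01 in GDF15 against Vehicle, PairFed against Vehicle and GDF15 against PairFed, with intervals that lay within -0.21 and 0.28. Without Vehicle mouse 1, Trim63 gave 0.15 in GDF15 against Vehicle (adjusted p = 0.667) and 0.13 in PairFed against Vehicle (adjusted p = 0.533).

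No difference between groups was thus resolved in either of the genes most used as markers of atrophy, and the 95% intervals of the log2 fold changes of Fbxo32 and Trim63 stayed between -0.44 and 0.30. Under scaling to the same total, depth as a covariate or the mouse number as a block, some of these small differences changed sign, as did some of Foxo3, Foxo4, Fbxo31 and Cdkn1a.

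The remaining F-box genes are Fbxo30 (chr10:11281330-11298052, + strand), which encodes MUSA1, Fbxo31 (chr8:121549440-121578806, - strand) and Fbxo21 (chr5:117976730-118010201, + strand), which encodes SMART. MUSA1 and SMART are SCF ligase subunits known to be needed for denervation atrophy, and Fbxo31 is best known for its part in cyclin D1 turnover. Fbxo31 was nearly level, at 2757 ± 181 (SD, n = 5), 2836 ± 229 (SD, n = 6) and 2810 ± 167 (SD, n = 5) normalized counts in Vehicle, GDF15 and PairFed mice, with log2 fold changes of 0.04, 0.03 and 0.01 across the 3 comparisons in the same order as for Trim63. Fbxo30 ran from 202 to 260 normalized counts in Vehicle, 175 to 234 in GDF15 and 197 to 250 in PairFed mice. Its log2 fold changes were -0.18 in GDF15 against Vehicle (adjusted p = 0.476) and -0.10 in PairFed against Vehicle (adjusted p = 0.626).

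For Fbxo21 the ranges were 271 to 331 normalized counts in Vehicle, 217 to 301 in GDF15 and 237 to 302 in PairFed mice. The highest PairFed value was that of mouse 4, and the other 4 PairFed mice lay below every Vehicle mouse. Log2 fold changes of Fbxo21 were -0.18 in GDF15 against Vehicle (adjusted p = 0.491), -0.20 in PairFed against Vehicle (adjusted p = 0.263) and 0.02 in GDF15 against PairFed (adjusted p = 0.947).

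Cdkn1a (chr17:29090976-29100727, + strand) encodes p21, a cell cycle inhibitor that rises in immobilised and denervated muscle and is a target of p53 and FOXO factors. It had 191, 207, 183, 178 and 134 normalized counts in the Vehicle mice and 113, 185, 121, 128 and 165 in the PairFed mice. In the GDF15 mice the counts ran from 107 to 185 with a median of 144. The groups overlapped, and Vehicle mice 1 and 2 lay above every GDF15 and PairFed mouse. Log2 fold changes were -0.29 in GDF15 against Vehicle (SE 0.15, adjusted p = 0.516), -0.33 in PairFed against Vehicle (SE 0.16, adjusted p = 0.263) and 0.05 in GDF15 against PairFed (SE 0.15, adjusted p = 0.926). The 95% interval in PairFed against Vehicle ran from -0.67 to -0.0019 and that in GDF15 against Vehicle from -0.61 to 0.03, and neither difference passed after adjustment over all genes.

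**Figure D3:**
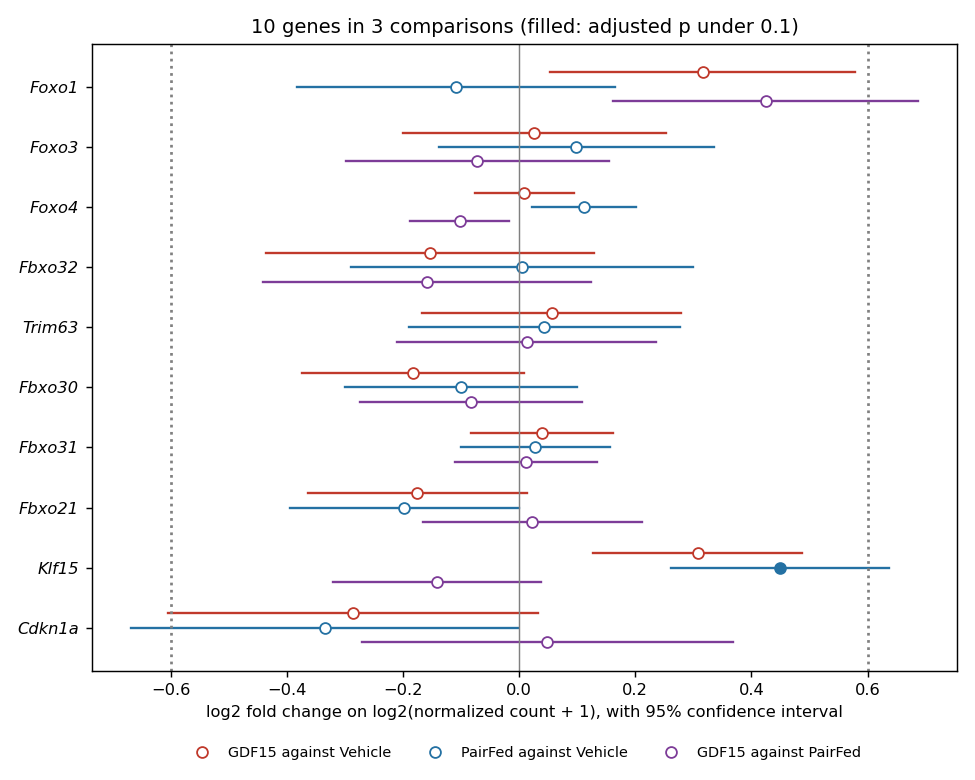
Log2 fold changes of the 10 genes with 95% confidence intervals in the 3 comparisons (limma on log2(normalized count + 1), 16 libraries), the dotted lines marking 0.6 in size. The only filled point, which stands for an adjusted p under 0.1, is Klf15 in PairFed against Vehicle at 0.45.

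Whether the members varied together from mouse to mouse was examined on the deviations of each mouse from its group mean, over 16 mice and 45 pairs of members. Fbxo32 and Trim63 formed the pair with the highest correlation, with Pearson r = 0.81 (permutation p = 0.00123 within groups, 0.0553 after Benjamini-Hochberg adjustment) and Spearman rho = 0.80 (permutation p = 0.00184, adjusted 0.0828). Without the 2 mice farthest from the median of Fbxo32, r was 0.69, and without Vehicle mouse 1, which was highest in both genes, it was 0.72 (permutation test, adjusted p = 0.307). Foxo3 and Klf15 came next by adjusted p, with r = 0.61 (permutation p = 0.00563, adjusted 0.127) and rho = 0.65 (permutation p = 0.00665, adjusted 0.15), and r was 0.63 without 2 mice. No pair had an adjusted p under 0.05, so that joint variation of the members was not established at that threshold. Adjusted p of Fbxo32 and Trim63 lay between 0.027 and 0.0544 in the alternative analyses and between 0.0184 and 0.307 with 1 library left out.

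**Figure D4:**
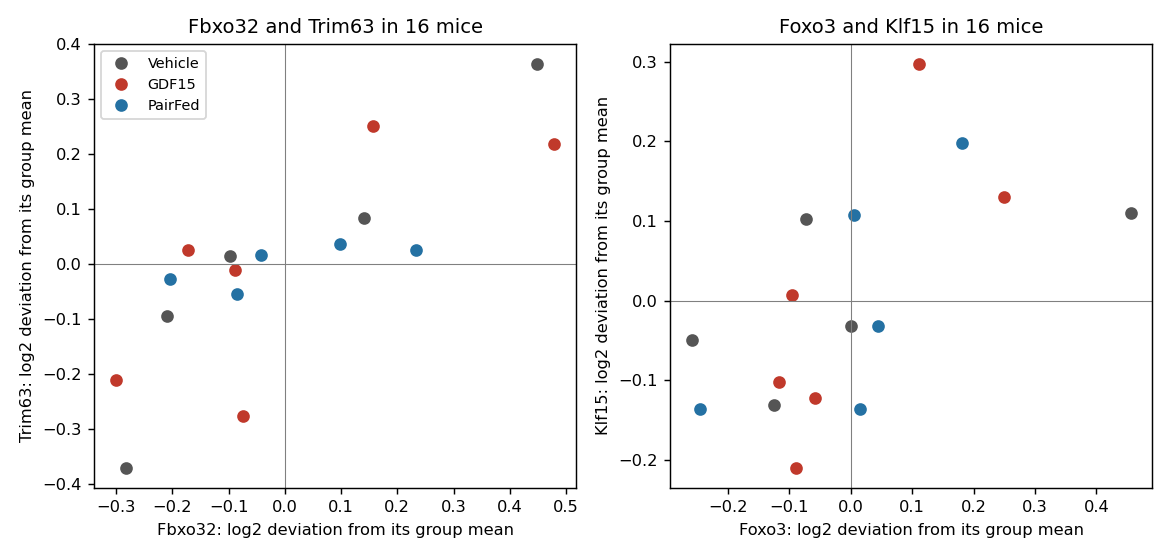
Deviations of log2(normalized count + 1) from the group mean in each of 16 mice, for Fbxo32 and Trim63 (left) and for Foxo3 and Klf15 (right), with points coloured by group. Mice with more Fbxo32 than their group had more Trim63 (r = 0.81), and the relation of Foxo3 to Klf15 is looser (r = 0.61).

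As a description, with no test, the tested genes whose deviations followed Fbxo32 most closely over the 16 mice were Asb2 (r = 0.86), Exoc6b (0.83), Nubp1 (0.83), Mmab (0.82) and Zfp90 (0.82), with Trim63 in place 7. Those closest to Trim63 were Ssh2 (r = 0.89), Plaa (0.87), Rbm24 (0.82), Fbxo32 (0.81) and Rab3ip (0.80). Asb2, the substrate receptor of a cullin ligase of muscle, is itself a ubiquitin ligase gene, and Plaa encodes a ubiquitin-binding partner of the p97 segregase. All these values come from the same 16 libraries and share their scaling.

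Around the members, none of the 16 tested genes of the SCF ligase core passed an adjusted limma p of 0.1 in any comparison. Their median log2 fold changes were -0.02, 0.01 and -0.03 in GDF15 against Vehicle, PairFed against Vehicle and GDF15 against PairFed, and 6, 9 and 5 of the 16 were positive. The smallest adjusted p belonged to Uba3, a subunit of the NEDD8-activating enzyme, at a log2 fold change of 0.17 in GDF15 against PairFed (adjusted p = 0.149). Of 24 other muscle ubiquitin ligase genes, 1 passed in each comparison, beside 0.769%, 6.37% and 2.17% of all genes in the same order. Nedd4, a HECT ligase gene, rose by 0.17 in PairFed against Vehicle (log2 fold change, adjusted p = 0.0647). Asb2 fell in GDF15 against Vehicle (log2 fold change -0.26, adjusted p = 0.0906) and Ubr4, an N-recognin gene, was lower in GDF15 than in PairFed mice (-0.22, adjusted p = 0.0922), both named after their values were seen. In most alternatives these last genes did not pass, Asb2 passing in 5 of 11 and with 3 of 16 libraries left out, and Ubr4 in 4 of 11 and with 6 of 16.

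Beyond the members, FOXO-responsive genes of autophagy, the proteasome and stress defence were examined. Of 30 tested, 7 rose and 1 fell in PairFed against Vehicle, 0 rose and 0 fell in GDF15 against Vehicle, and 0 rose and 5 were lower in GDF15 against PairFed (limma adjusted p under 0.1), beside 6.37%, 0.769% and 2.17% of all genes in either direction. Their median log2 fold changes were 0.07, -0.02 and -0.05 in the same order, and 16, 14 and 11 of the 30 were positive. None passed both thresholds. Pdk4, named after its values were seen, had the largest change in size. Its log2 fold change was -0.71 in GDF15 against Vehicle (adjusted p = 0.254) and -0.58 in PairFed against Vehicle (adjusted p = 0.213). Pdk4 thus exceeded the fold threshold in GDF15 against Vehicle without passing the adjusted p threshold. Zfand5, which encodes a zinc finger protein that activates the proteasome, had the smallest adjusted p of the list, though not its largest fold change. Zfand5 stood at 4691 ± 196 (SD, n = 5) normalized counts in Vehicle, 4760 ± 278 (SD, n = 6) in GDF15 and 6146 ± 612 (SD, n = 5) in PairFed mice. The PairFed mice, from 5169 to 6761, lay above all Vehicle mice, which reached 4961, and above all GDF15 mice, which reached 5069. Its log2 fold change was 0.38 in PairFed against Vehicle (adjusted p = 0.0029), -0.36 in GDF15 against PairFed (adjusted p = 0.00718) and 0.02 in GDF15 against Vehicle (adjusted p = 0.941).

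The other genes of this list are named after their values were seen. Gabarapl1, an autophagosome protein gene, rose by 0.40 in PairFed against Vehicle (log2 fold change, adjusted p = 0.00298) and was lower in GDF15 than in PairFed mice (-0.38, adjusted p = 0.00808). Ulk1, the kinase that starts autophagy, rose by 0.32 (adjusted p = 0.0355) and differed by -0.44 between GDF15 and PairFed (adjusted p = 0.0107), and Pik3ip1, an inhibitor of PI3 kinase, rose by 0.49 (adjusted p = 0.0176) and differed by -0.41 (adjusted p = 0.062). Eif4ebp1 (0.34, adjusted p = 0.0123), Gadd45a (0.33, adjusted p = 0.0388) and Bnip3l (0.23, adjusted p = 0.0659) completed the genes that rose in PairFed against Vehicle. Bnip3l passed in 8 of 11 alternatives and in 10 of 16 fits with 1 library left out. The mitochondrial superoxide dismutase gene Sod2 fell in the same comparison (-0.24, adjusted p = 0.075). Sesn1, a stress-induced inhibitor of mTORC1, was lower in GDF15 than in PairFed mice (-0.36, adjusted p = 0.0486). Scaling to the same total shifted the median of all genes by 0.05 in size in the comparisons with PairFed. The count that rose in PairFed against Vehicle was 5 to 7 over the 11 alternatives and 6 to 8 with 1 library left out. The count lower in GDF15 against PairFed was 3 to 5 over both, being 3 with depth as a covariate and without GDF15 mouse 4, PairFed mouse 5 or PairFed mouse 6.

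**Figure D5:**
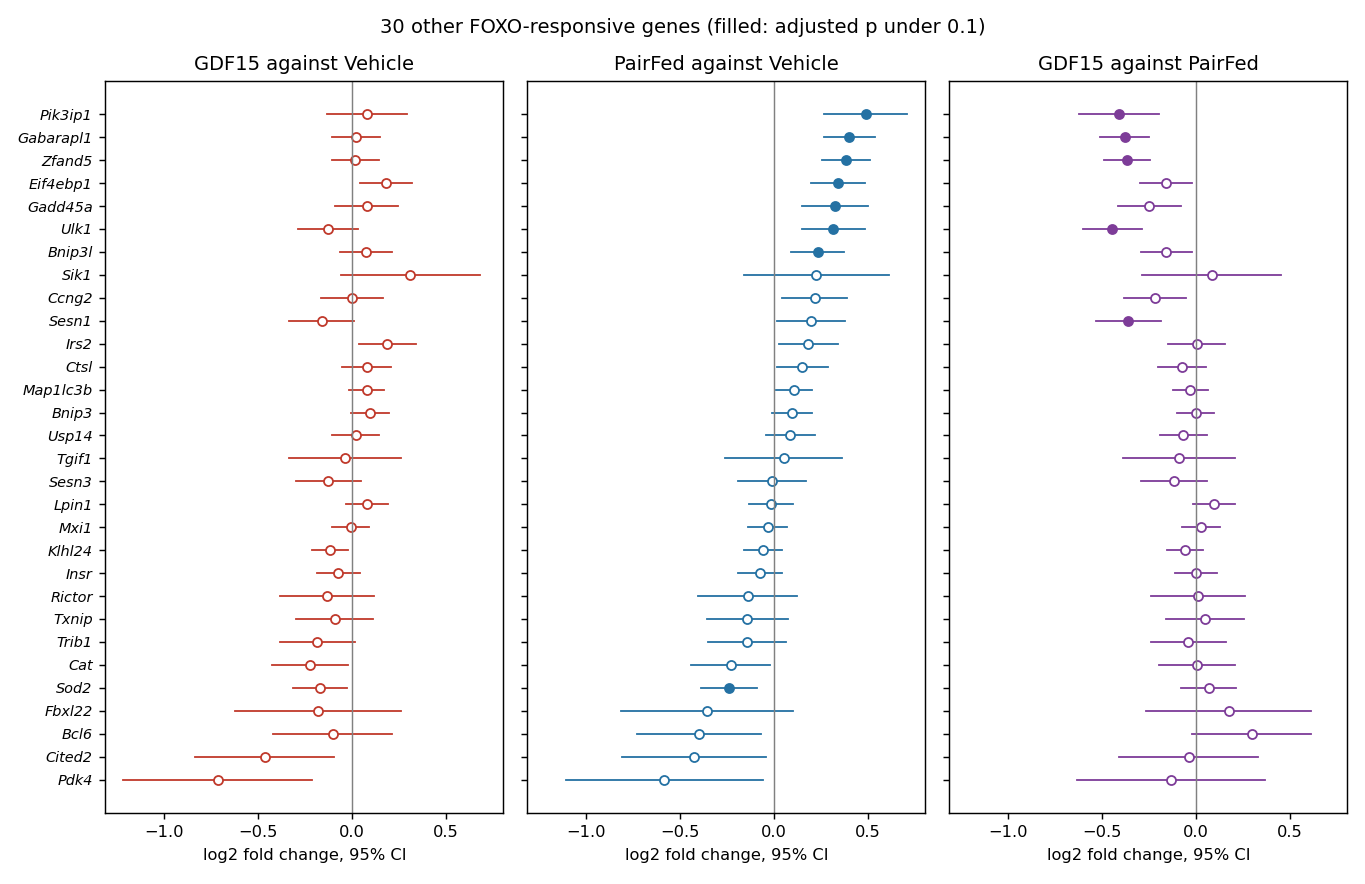
Log2 fold changes with 95% confidence intervals of 30 other FOXO-responsive genes in the 3 comparisons, ordered by PairFed against Vehicle, with filled points for an adjusted p under 0.1. The 7 genes that rose in PairFed mice stand at 0.23 to 0.49 in the middle panel, and no point is filled in GDF15 against Vehicle.

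Among 25 tested genes upstream of FOXO, 0 passed in GDF15 against Vehicle, 1 rose and 1 fell in PairFed against Vehicle, and 2 were higher and 2 lower in GDF15 against PairFed, beside 0.769%, 6.37% and 2.17% of all genes. Pik3r1, the regulatory subunit of PI3 kinase, stood at 337 ± 34.1 (SD, n = 5) normalized counts in Vehicle, 343 ± 28.7 (SD, n = 6) in GDF15 and 255 ± 33.7 (SD, n = 5) in PairFed mice. It fell in PairFed against Vehicle (log2 fold change -0.40, adjusted p = 0.0234) and was higher in GDF15 than in PairFed mice (0.43, adjusted p = 0.0322). Igf1r, the IGF1 receptor, moved in the other direction, with 0.35 (adjusted p = 0.043) and -0.41 (adjusted p = 0.0368), and Foxk1 (-0.32, adjusted p = 0.0541) and the fourth FOXO gene, Foxo6 (0.40, adjusted p = 0.0953), passed in GDF15 against PairFed. These last 3 were named after their values were seen, and Foxo6 passed in 5 of 11 alternatives and with only 1 of 16 libraries left out. Igf1r passed in 10 of 11 alternatives in both comparisons, but not in PairFed against Vehicle without Vehicle mouse 5, PairFed mouse 5 or PairFed mouse 6 (adjusted p up to 0.113), nor in GDF15 against PairFed without PairFed mouse 5 or 6 (up to 0.12).

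Of 19 tested genes of the p53 response, to which Cdkn1a belongs, 0 passed in GDF15 against Vehicle and 1 in each direction passed in both other comparisons, beside 0.769%, 6.37% and 2.17% of all genes. Trp53inp2, an autophagy cofactor gene, fell in PairFed against Vehicle (log2 fold change -0.31, adjusted p = 0.0123) and was higher in GDF15 than in PairFed mice (0.23, adjusted p = 0.0678). Cdkn1b, which encodes the related inhibitor p27, rose by 0.20 in PairFed against Vehicle (adjusted p = 0.0647), and Ddit4l, an inhibitor of mTORC1, was lower in GDF15 than in PairFed mice (-0.39, adjusted p = 0.0322), both named after their values were seen.

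Markers of other cells and fibre types were measured beside these genes, and their part in the results was not tested. All 6 endothelial markers were lower than in Vehicle in both low-intake groups, with sums of 4515 to 5408 normalized counts in Vehicle, 3790 to 4598 in GDF15 and 3960 to 4802 in PairFed mice. Among them Kdr, the VEGF receptor, fell with GDF15 (log2 fold change -0.66, adjusted p = 0.00116) and with pair feeding (-0.50, adjusted p = 0.00473). Of the fibre markers, the IIx myosin gene Myh1 fell in PairFed against Vehicle (-0.68, adjusted p = 0.0123), where Actn3 (0.33, adjusted p = 0.0167) and Ckm (0.15, adjusted p = 0.0997), named after their values were seen, rose, and Actn3 was lower in GDF15 than in PairFed mice (-0.27, adjusted p = 0.0678). Ckm passed in 3 of 11 alternatives and with 4 of 16 libraries left out, and Actn3 in GDF15 against PairFed passed in 7 of 11 and with 9 of 16 left out. The leukocyte marker Ptprc (-0.97, adjusted p = 0.0634) and the smooth muscle marker Cnn1 (-1.47, adjusted p = 0.0523) fell in PairFed against Vehicle, both from means under 30 normalized counts.

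No slow fibre, fibroblast, adipocyte, erythroid, Schwann or satellite cell marker passed. The adipocyte sum ran from 85.8 to 402 normalized counts in Vehicle, 50.8 to 1193 in GDF15 and 216 to 600 in PairFed mice. The slow fibre sum ran from 1244 to 1576, 1216 to 3505 and 1136 to 3503 in the same order, the fibroblast sum from 2708 to 5385, 3692 to 6184 and 2745 to 5574, and the satellite cell sum from 600 to 711, 637 to 703 and 669 to 752. The leukocyte sum ran from 214 to 338, 167 to 386 and 145 to 350, the erythroid sum from 260 to 3146, 838 to 2556 and 79.9 to 3743, the Schwann cell sum from 879 to 1346, 1078 to 1496 and 607 to 1587, and the smooth muscle sum from 1589 to 2157, 1301 to 2151 and 1639 to 2111. Positive log2 fold changes in GDF15 against Vehicle, PairFed against Vehicle and GDF15 against PairFed numbered 0, 0 and 3 of 6 for endothelial, 5, 6 and 2 of 8 for muscle fibre, 7, 6 and 4 of 7 for slow fibre, 3, 1 and 5 of 5 for fibroblast and 6, 6 and 3 of 6 for adipocyte markers. They numbered 3, 0 and 5 of 5 for leukocyte, 3, 2 and 3 of 3 for erythroid, 5, 0 and 5 of 5 for Schwann cell, 2, 3 and 2 of 5 for satellite cell and 0, 0 and 4 of 4 for smooth muscle markers. Alas2 was at 0 in at least 1 PairFed library, and Cd3e, Hba-a2 and Hbb-bs had no row.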

How the data were processed

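RNA of 5 Vehicle, 6 GDF15 and 5 PairFed tibialis anterior muscles was sequenced by the authors as directional read pairs, 1 library per mouse. The authors trimmed reads with Trim Galore and the authors used Salmon and DESeq2 to quantify and scale them (mm10 in the submitters' processing notes, tool versions not given in the sources used here). The deposited log2 values, from 7.32 to 20.0, follow a variance stabilizing form whose lowest value stands for a count of 0, although the authors named the file as normalized counts. They were transformed back to normalized counts. Low values of genes with a single transcript were whole reads (within 0.1 read) in 96.3% to 98.5% of cases and those of genes with over 4 transcripts in 20.1% to 27.9%, so depth was approximated and no count model was run. Depth limits precision, and genes with few reads carry more counting error.

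The 11841 genes that averaged 10 or more normalized counts were fitted on log2(normalized count + 1) with limma 3.58.1 (trend, 3 groups, no covariate) in R 4.3.3, two-sided, which understates changes of low genes. Pairs were tested by 100000 within-group permutations in Python 3.11.15 with numpy 2.4.6. Groups came from the labels. Whether same-numbered mice share a litter or day is not stated. The limma p-values set differences between groups against the spread between mice. The permutation p-values of the pairs set a correlation against shuffles of mice within groups. Positions are from GENCODE vM21 (GRCm38), with exons of all transcripts merged.

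The members and gene lists were chosen with earlier results of these data known. Lists were the SCF core, other muscle ligases, other FOXO-responsive genes, FOXO upstream genes, Klf15 and glucocorticoid receptor partners, p53 response genes and cell type markers, with Mdm2 and Fbxl22 each in a pair of lists. Named were all members, list genes past both thresholds or else the one with the smallest adjusted p, and the 5 genes most like Fbxo32 and Trim63. Alternatives were other pseudocounts, filters, scalings, spread estimates, depth, mouse number as a block and each library left out. For the list genes and list counts they were added after seeing the data.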

Additional observations from a re-analysis of the deposited data

Results flagged for a closer look

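In each of 30 combinations of a member and a group, the highest and the lowest mouse were compared with the nearest other mouse relative to the range of the group, and 4 combinations held a mouse that stood apart. Chance alone gives about 1 in 20 groups. Foxo1 was at 607 normalized counts in Vehicle mouse 1, with the next Vehicle mouse at 376, and at 587 in GDF15 mouse 4, with the next GDF15 mouse at 490. Foxo4 was lowest in Vehicle mouse 5, at 2951 normalized counts with the next at 3210. Fbxo21 was highest in PairFed mouse 4, at 302 normalized counts with the next at 253.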

How the results depend on the processing

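Member fold changes were recomputed under 11 alternatives and with each of 16 libraries left out, 810 values in all. In 767 the direction and the side of the threshold were those reported, in 5 a member newly passed (Foxo1 in 4 and Foxo4 in 1), and in 38 the sign changed, in each case for a value that had not passed an adjusted p of 0.1. With depth as a covariate, GDF15 against Vehicle gave -0.021 for Foxo3, -0.035 for Foxo4, -0.042 for Trim63 and -0.0039 for Fbxo31, and GDF15 against PairFed gave -0.094 for Trim63, -0.035 for Fbxo31 and -0.065 for Cdkn1a. Scaling to the same total gave, in PairFed against Vehicle, -0.042 for Fbxo32, -0.0038 for Trim63 and -0.019 for Fbxo31. Over all tested genes, same-numbered libraries were not more alike than others. The 14 same-numbered pairs correlated at -0.10 to 0.07, and 0 exceeded 0.1, beside -0.11 to 0.19 for 71 pairs of different number. Correlations over all genes could not show a shared effect limited to some genes. With the mouse number as a block, Fbxo32 in PairFed against Vehicle was -0.058 and Trim63 in GDF15 against PairFed -0.000296, Klf15 in PairFed against Vehicle kept 0.42 (adjusted p = 0.042), and 0, 1 and 0 members passed as without it. Leaving out 1 library, GDF15 against Vehicle ranged from -0.038 to 0.14 for Foxo3, -0.018 to 0.021 for Foxo4 and -0.037 to 0.15 for Trim63. PairFed against Vehicle ranged from -0.18 to 0.048 for Foxo1, -0.066 to 0.12 for Fbxo32, -0.049 to 0.13 for Trim63 and -0.00497 to 0.061 for Fbxo31. GDF15 against PairFed ranged from -0.038 to 0.068 for Trim63, -0.021 to 0.042 for Fbxo31, -0.019 to 0.081 for Fbxo21 and -0.027 to 0.15 for Cdkn1a. Members at an adjusted p under 0.1 numbered 0 to 1 in GDF15 against Vehicle (1 without Vehicle mouse 1), 1 to 2 in PairFed against Vehicle (2 without PairFed mouse 4) and 0 to 1 in GDF15 against PairFed (1 without Vehicle mouse 1, in the fit of only these groups and under scaling to the same total). Pairs of members at an adjusted p under 0.05 numbered 1, Fbxo32 with Trim63, under quantile normalization, scaling to the same total and the deposited values, and 0 to 1 with 1 library left out (1 without GDF15 mouse 3 or 5). Of the 45 differences of other list genes at an adjusted p under 0.1, 21 stayed under it in every alternative and with every library left out, and 24 did not in at least 1 of these, Foxo6, Asb2, Ubr4 and Ckm in most of them. With the mouse number as a block, Igf1r reached an adjusted p of 0.137 in PairFed against Vehicle and 0.104 in GDF15 against PairFed, and Gadd45a, Bnip3l, Cdkn1b, Ckm, Cnn1 and Ptprc in PairFed against Vehicle, Asb2 and Klf9 in GDF15 against Vehicle and Foxo6 and Ubr4 in GDF15 against PairFed also missed 0.1. Sod2 stayed lower in PairFed than in Vehicle mice in every setting but missed the threshold without a trend or without any 1 Vehicle mouse or PairFed mouse 2, 5 or 6. Klf9 likewise stayed lower in GDF15 than in PairFed mice but missed it without a trend, under scaling to the same total or without PairFed mouse 6. The cause of these changes was not tested.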
